A study of Mus musculus with 6 samples.

Results

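The 10 genes that mark the small vessels of the brain, described here in the mouse hippocampus, are 7 for endothelial cells (*Cldn5*, *Pecam1*, *Flt1*, *Kdr*, *Tek*, *Slco1a4*, and *Mfsd2a*) and 3 for pericytes (*Pdgfrb*, *Rgs5*, and *Vtn*). They were taken by gene symbol alone, and all 10 were among the 14477 genes of the expression matrix. Hippocampal RNA-Seq was compared between Phf21bΔ4/Δ4 replicates 2, 3, and 6 and Phf21b+/+ replicates 5, 7, and 8, each a separate mouse, with 1 library per mouse and no treatment. The Phf21bΔ4/Δ4 line carries a CRISPR/Cas9 deletion in exon 4 of *Phf21b* in every cell of the body and still makes *Phf21b* RNA. The Phf21bΔ4/Δ4 mice and their Phf21b+/+ littermates have a C57BL/6J background, and young adults of both sexes were used in the study. The sex and age of each of the 6 sequenced mice are not given by their labels.

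Endothelial cells line the brain capillaries and form the blood-brain barrier with tight junctions, few transport vesicles, and a set of dedicated transporters. Pericytes sit on the outer wall of the same capillaries within the shared basement membrane. Endothelial PDGF-B recruits pericytes through the receptor PDGFRβ, and pericytes in turn help the endothelium keep its barrier. VEGF and angiopoietin receptors on the endothelium control vessel growth and upkeep.

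Levels are given as CPM, read counts scaled to the effective library size, worked back from deposited log2 values. Each mouse had between 20495605 and 24881257 reads on the listed genes, so that 1 read was worth 0.0422 to 0.0476 CPM. *Phf21b*, the targeted gene, was at 2.15, 3.57, and 3.87 CPM in Phf21bΔ4/Δ4 replicates 2, 3, and 6 and at 6.5, 5.23, and 6.47 CPM in Phf21b+/+ replicates 5, 7, and 8. The Phf21bΔ4/Δ4 levels were all below the Phf21b+/+ levels (log2 fold change -0.96, SE 0.26, adjusted p = 0.141 in limma). Several libraries stood apart by genes of neighboring regions and of hippocampal subfields. Summed over 6 dentate granule cell genes, Phf21bΔ4/Δ4 replicates 2 and 3 were at 157 and 146 CPM. Phf21bΔ4/Δ4 replicate 6 was at 432 CPM, still below the Phf21b+/+ mice at 501 to 587 CPM. Summed over 15 choroid plexus genes, Phf21b+/+ replicates 7 and 8 were at 24140 and 1841 CPM, while the other 4 mice were at 264 to 389 CPM. Summed over 12 medial habenula genes, the 3 Phf21b+/+ mice were at 243 to 347 CPM and the 3 Phf21bΔ4/Δ4 mice at 20.4 to 30.7 CPM. Summed over 7 CA1 pyramidal cell genes, the Phf21b+/+ mice were at 409 to 455 CPM and the Phf21bΔ4/Δ4 mice at 996 to 1100 CPM. For 7 thalamic genes, with *Prox1* of the dentate list among them, the sums were 370 to 583 CPM and 221 to 324 CPM. All vascular results rest on these libraries. Values without those set apart by dentate granule cell or choroid plexus genes close the account. The medial habenula, CA1, and dentate sums each divide all mice of 1 genotype from all of the other, as does the thalamic sum with *Prox1* in it. No library could be left out to remove these differences, and they cannot be told apart from genotype here.

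All 10 vascular markers had a higher mean in the Phf21bΔ4/Δ4 hippocampus, and none of them passed the test for differential expression. The median log2 fold change of the 10 was 0.36, against -0.02 over all 14477 genes, and it was 0.32 for the 7 endothelial and 0.62 for the 3 pericyte markers. Genes were called in limma where the FDR, taken over all genes, was under 0.1 and the fold above 1.3. With this rule 1.22% of all genes were called and 0.553% were called higher, while 0 of the 10 markers were called the lowest adjusted p among them was 0.132, and limma's voom on the recovered reads also called 0. At an unadjusted p under 0.05, 5 of the 10 were higher, against 11.6% of all genes. In these same 5 genes (*Rgs5*, *Pdgfrb*, *Flt1*, *Cldn5*, and *Mfsd2a*) every Phf21bΔ4/Δ4 mouse was above every Phf21b+/+ mouse, which held for 15.0% of all genes. A positive fold change alone was found for 47.6% of all genes. Because whole tissue was sequenced, a difference in the number of vascular cells and a difference in RNA per cell cannot be told apart.

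**Figure D1:**
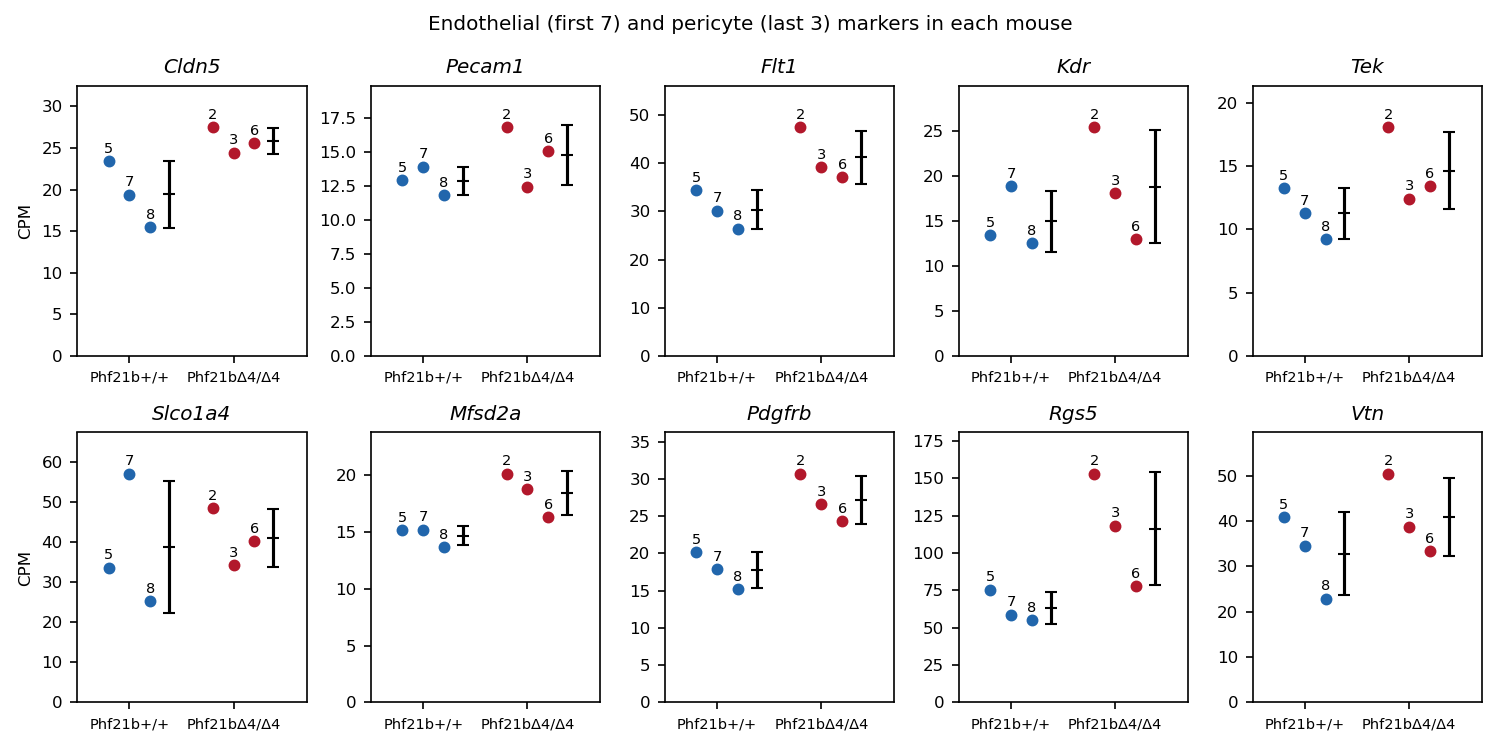
CPM of the 7 endothelial and 3 pericyte markers in each mouse, with the replicate number above each point and the mean ± SD of the 3 mice of a genotype as a bar beside them. Every axis starts at 0. Phf21bΔ4/Δ4 replicate 2 was the highest mouse in 9 of the 10 genes, and Phf21b+/+ replicate 8 was the lowest in all 10.

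*Cldn5* encodes claudin-5, the main claudin of the endothelial tight junction, and lies at chr16:18776847-18778262 (GRCm38, plus strand). Its level was 27.5, 24.4, and 25.6 CPM in Phf21bΔ4/Δ4 replicates 2, 3, and 6 and 23.4, 19.4, and 15.5 CPM in Phf21b+/+ replicates 5, 7, and 8. The genotypes did not overlap, and the lowest Phf21bΔ4/Δ4 mouse was close to the highest Phf21b+/+ mouse. The means were 25.8 ± 1.55 and 19.4 ± 3.99 CPM (SD over 3 mice), with a log2 fold change of 0.43 (SE 0.16, 95% interval 0.05 to 0.81, adjusted p = 0.180). *Pecam1* encodes PECAM-1 (CD31), an adhesion molecule of the junctions between endothelial cells, and lies at chr11:106654217-106750628 (minus strand). It was at 16.8, 12.4, and 15.1 CPM in the Phf21bΔ4/Δ4 mice and at 12.9, 13.9, and 11.8 CPM in the Phf21b+/+ mice. The genotypes overlapped, since Phf21bΔ4/Δ4 replicate 3 was below both Phf21b+/+ replicates 5 and 7. The log2 fold change of *Pecam1* was 0.19 (SE 0.14, 95% interval -0.15 to 0.52, adjusted p = 0.418).

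The 3 endothelial receptor genes encode VEGFR1 (*Flt1*), which binds VEGF tightly and signals weakly, VEGFR2 (*Kdr*), the main signaling receptor for VEGF-A, and TIE2 (*Tek*), the receptor for angiopoietins. *Flt1* (chr5:147561604-147726011, minus strand) was at 47.5, 39.2, and 37.1 CPM in Phf21bΔ4/Δ4 replicates 2, 3, and 6 and at 34.5, 30.1, and 26.4 CPM in Phf21b+/+ replicates 5, 7, and 8. The genotypes did not overlap, with means of 41.2 ± 5.49 and 30.3 ± 4.02 CPM and a log2 fold change of 0.44 (SE 0.14, 95% interval 0.12 to 0.77, adjusted p = 0.155). *Kdr* (chr5:75932827-75978458, minus strand) was at 25.4, 18.1, and 13 CPM in the Phf21bΔ4/Δ4 mice and at 13.4, 18.9, and 12.5 CPM in the Phf21b+/+ mice. The 2 VEGF receptors did not share an order of mice: Phf21b+/+ replicate 7 was above 2 of the Phf21bΔ4/Δ4 mice for *Kdr* and below all of them for *Flt1*. The log2 fold change of *Kdr* was 0.30 (SE 0.27, 95% interval -0.34 to 0.95, adjusted p = 0.497), and its SD in the Phf21bΔ4/Δ4 mice was 6.25 CPM for a mean of 18.8 CPM. *Tek* (chr4:94739289-94874976, plus strand) was at 18.1, 12.4, and 13.4 CPM in the Phf21bΔ4/Δ4 mice and at 13.3, 11.3, and 9.26 CPM in the Phf21b+/+ mice. Only Phf21bΔ4/Δ4 replicate 3 was within the Phf21b+/+ range, and the log2 fold change was 0.37 (SE 0.19, 95% interval -0.09 to 0.84, adjusted p = 0.276).

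The 250 bases before the transcription start of *Flt1* are shown because the window held a full cAMP response element, the binding letters of the CREB family, which the study examined with PHF21B. Those of *Cldn5* and *Rgs5*, an endothelial and a pericyte gene whose genotypes also did not overlap, are shown for comparison. The sequences are from RefSeq on GRCm38.p6, written 5′ to 3′ on the strand of the gene, with any full element TGACGTCA in capitals. The *Flt1* stretch is chr5:147726012-147726261 on the minus strand, that of *Cldn5* is chr16:18776597-18776846 on the plus strand, and that of *Rgs5* is chr1:169655251-169655500 on the plus strand.
Flt1: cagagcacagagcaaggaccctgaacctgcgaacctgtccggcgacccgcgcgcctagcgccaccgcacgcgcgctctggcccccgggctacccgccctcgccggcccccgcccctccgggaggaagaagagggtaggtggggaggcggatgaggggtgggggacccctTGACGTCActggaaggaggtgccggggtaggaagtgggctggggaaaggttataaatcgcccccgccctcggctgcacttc
Cldn5: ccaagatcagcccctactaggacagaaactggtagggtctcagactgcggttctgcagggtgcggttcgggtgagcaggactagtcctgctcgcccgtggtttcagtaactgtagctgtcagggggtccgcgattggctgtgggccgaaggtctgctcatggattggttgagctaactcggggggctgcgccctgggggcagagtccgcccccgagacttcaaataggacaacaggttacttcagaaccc
Rgs5: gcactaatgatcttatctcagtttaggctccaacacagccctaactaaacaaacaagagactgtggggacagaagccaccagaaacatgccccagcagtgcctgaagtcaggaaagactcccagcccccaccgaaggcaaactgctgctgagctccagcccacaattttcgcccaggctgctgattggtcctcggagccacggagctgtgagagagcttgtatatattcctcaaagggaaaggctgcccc
The element began at base -81 from the start of *Flt1*. RefSeq windows of 250 bases before to 50 bases after the start were found for 8 of the 10 markers, and not for *Pecam1* and *Pdgfrb*. On either strand, TGACGTCA was found in 1 of the 8 windows, against 588 of 32851 windows of all genes (1.79%). The shorter letters TGACG, which the full element contains, was found in 1 of 8 windows, again *Flt1*, against 20.8% of all windows. The ETS site CCGGAAGT, named for the factor family with many members in endothelium, was found in 0 of 8 windows, against 3.89% of all windows. The bases G and C made up 70.4% of the *Flt1* stretch, 59.6% of the *Cldn5* stretch, and 53.6% of the *Rgs5* stretch. A match describes only the letters of these windows.

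*Slco1a4* and *Mfsd2a* encode transporters of the barrier, and their values were spread in different ways. *Slco1a4* (chr6:141805440-141856199, minus strand) encodes an organic anion transporter, and was at 48.5, 34.3, and 40.2 CPM in Phf21bΔ4/Δ4 replicates 2, 3, and 6 and at 33.6, 57.0, and 25.3 CPM in Phf21b+/+ replicates 5, 7, and 8. It was the only one of the 10 markers with its highest level in a Phf21b+/+ mouse, replicate 7, the library with the most choroid plexus reads (24140 CPM over the 15 genes). Phf21b+/+ replicate 8, the other library with high choroid plexus genes (1841 CPM), had the lowest *Slco1a4* level of the 6 mice. The part of choroid plexus genes in these values was not tested. The means of 41.0 ± 7.14 and 38.6 ± 16.4 CPM gave a log2 fold change of 0.15 (SE 0.29, 95% interval -0.55 to 0.85, adjusted p = 0.760). *Mfsd2a* (chr4:122946850-122961188, minus strand) encodes the carrier of lysophosphatidylcholine with docosahexaenoic acid, which also restrains vesicle transport through the endothelium. It was at 20.2, 18.8, and 16.4 CPM in the Phf21bΔ4/Δ4 mice and at 15.2, 15.2, and 13.7 CPM in the Phf21b+/+ mice. *Mfsd2a* had the smallest spread of the 10 among the Phf21b+/+ mice, and its genotypes did not overlap. The means were 18.4 ± 1.93 and 14.7 ± 0.867 CPM (SD over 3 mice), with a log2 fold change of 0.32 (SE 0.11, 95% interval 0.05 to 0.59, adjusted p = 0.172).

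The 2 largest differences among the 10 were those of the pericyte genes *Rgs5* and *Pdgfrb*. *Rgs5* (chr1:169655501-169695813, plus strand) encodes a regulator of G protein signaling that is abundant in pericytes and vascular smooth muscle. It was at 153, 118, and 77.9 CPM in Phf21bΔ4/Δ4 replicates 2, 3, and 6 and at 75.5, 58.8, and 55.2 CPM in Phf21b+/+ replicates 5, 7, and 8. The genotypes did not overlap, but Phf21bΔ4/Δ4 replicate 6 was only just above Phf21b+/+ replicate 5, and the highest mouse had 2.77 times the level of the lowest. The means of 116 ± 37.7 and 63.2 ± 10.9 CPM gave a log2 fold change of 0.84 (SE 0.25, 95% interval 0.24 to 1.44, adjusted p = 0.151), or 1.79-fold. *Pdgfrb* (chr18:61045150-61085061, plus strand), which encodes PDGFRβ, was at 30.7, 26.6, and 24.3 CPM in the Phf21bΔ4/Δ4 mice and at 20.2, 17.9, and 15.2 CPM in the Phf21b+/+ mice. All 3 Phf21bΔ4/Δ4 mice were clear of the Phf21b+/+ range. *Pdgfrb* had means of 27.2 ± 3.24 and 17.8 ± 2.47 CPM, a log2 fold change of 0.62 (SE 0.14, 95% interval 0.28 to 0.95), and the lowest adjusted p of the 10 markers, 0.132. *Vtn* (chr11:78499091-78502324, plus strand) encodes vitronectin, an adhesive matrix protein that brain pericytes secrete, and was at 50.5, 38.8, and 33.5 CPM in the Phf21bΔ4/Δ4 mice and at 41.0, 34.6, and 22.9 CPM in the Phf21b+/+ mice. Its genotypes overlapped, and the log2 fold change was 0.34 (SE 0.24, 95% interval -0.24 to 0.92, adjusted p = 0.404). In exact permutation tests (2-sided) the 5 genes whose genotypes did not overlap each had p = 0.1, the smallest p that 3 against 3 mice can give.

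A pair of mice stood at the ends of the range of nearly all markers. Phf21bΔ4/Δ4 replicate 2 was the highest mouse in 9 of the 10 markers, which was the case for 16.1% of all genes, and Phf21b+/+ replicate 8 was the lowest in 10 of 10, which was the case for 9.87% of all genes. The 7 endothelial markers summed to 204, 160, and 161 CPM in Phf21bΔ4/Δ4 replicates 2, 3, and 6 and to 146, 166, and 115 CPM in Phf21b+/+ replicates 5, 7, and 8. Phf21b+/+ replicate 7 was above 2 of the Phf21bΔ4/Δ4 mice in this sum, to which *Slco1a4* gave the most in that mouse. The 3 pericyte markers summed to 234, 184, and 136 CPM in the Phf21bΔ4/Δ4 mice and to 137, 111, and 93.4 CPM in the Phf21b+/+ mice. For the pericyte sum Phf21bΔ4/Δ4 replicate 6 was level with Phf21b+/+ replicate 5, while replicates 2 and 3 were above every other mouse. The ratio of the pericyte to the endothelial sum was 1.15 in both Phf21bΔ4/Δ4 replicates 2 and 3, 0.845 in Phf21bΔ4/Δ4 replicate 6, and 0.935, 0.671, and 0.815 in Phf21b+/+ replicates 5, 7, and 8. Phf21bΔ4/Δ4 replicates 2 and 3 were also the mice with the lowest sums of dentate granule cell genes. The part of this difference in the pericyte values was not tested. The 13 fibroblast and meningeal genes summed to 742.6, 527.1, and 134.8 CPM in the Phf21bΔ4/Δ4 mice and to 268.1, 336.1, and 288.5 CPM in the Phf21b+/+ mice. In this sum Phf21bΔ4/Δ4 replicates 2 and 3 were again above every other mouse, with *Nnat* at 546.2 and 399.9 CPM and *Dcn* at 152.0 and 100.5 CPM in them. These were the only 2 genes of the list with a positive log2 fold change, and the other 11 were negative. The sum thus does not stand for most of the list. The mean log2 CPM of the 13 genes, relative to its mean over the 6 mice, had another order. It was 0.25, -0.47, and -0.92 in Phf21bΔ4/Δ4 replicates 2, 3, and 6 and 0.41, 0.54, and 0.18 in Phf21b+/+ replicates 5, 7, and 8. The part of these genes in the pericyte values was not tested.

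Per kb of merged exon length, *Rgs5*, *Vtn*, and *Cldn5* were the most abundant of the 10 markers, with means over the 6 mice of 19.8, 18.2, and 16.0 CPM per kb. *Mfsd2a* (7.36 CPM per kb), *Slco1a4* (6.20), and *Pdgfrb* (4.10) came next, followed by *Tek* (2.75), *Flt1* (2.65), *Pecam1* (2.22), and *Kdr* (1.87). The break between *Cldn5* and *Mfsd2a* was the only one between neighbors at which the ranges over the 6 mice did not overlap, since the lowest mouse for *Cldn5* was at 10.9 and the highest for *Mfsd2a* at 8.96 CPM per kb. All other neighbors in this order overlapped. Compared within each mouse, *Slco1a4* was above *Pdgfrb*, *Pdgfrb* above *Tek*, and *Flt1* above *Pecam1* in all 6 mice, as *Cldn5* was above *Mfsd2a*. *Flt1*, with 13504 bases of exons, had more reads than *Cldn5*, with 1416 bases, and stood far below it per kb. These lengths join the exons of every annotated transcript of a gene. The length of the transcripts present was not measured, so the order holds for merged exons only. Each marker had between 206 and 3631 reads in a mouse.

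**Figure D2:**
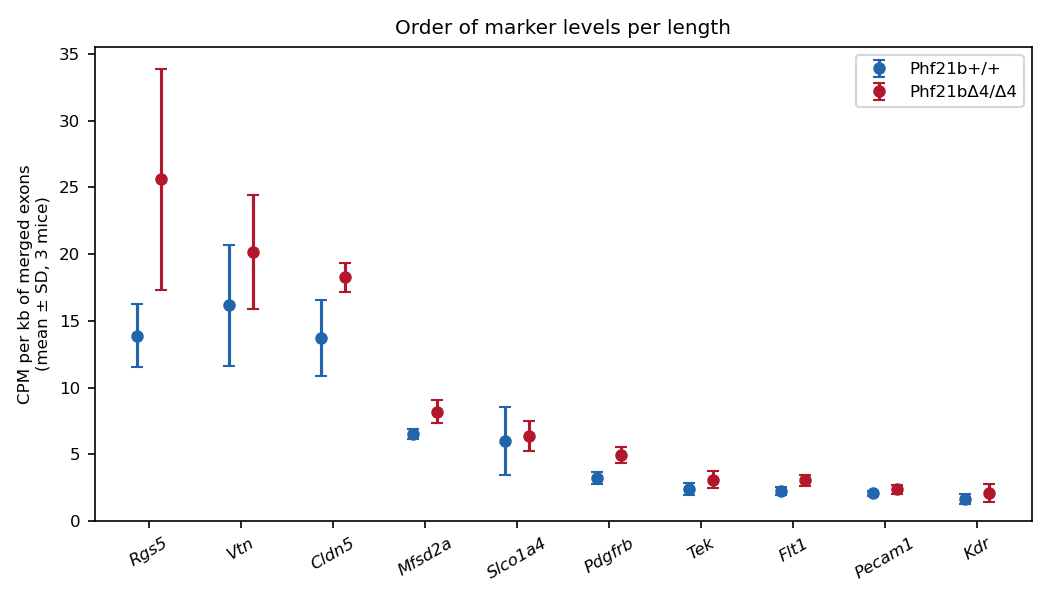
CPM per kb of merged exons for the 10 markers, in order of the mean over the 6 mice. Points are the means of the 3 mice of a genotype and bars the SD. *Rgs5*, *Vtn*, and *Cldn5* stand above the other 7 markers, and the Phf21bΔ4/Δ4 mean is above the Phf21b+/+ mean for all 10.

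Other genes of the same cells were less uniform. Of 36 other endothelial genes 35 were measured, and 0 of them were called, with 6 higher (17.1%, against 11.6% of all genes) and 2 lower at an unadjusted p under 0.05, or 22.9% either way, against 23.6% of all genes. Voom also called 0 of them. Their median log2 fold change was 0.23, with 24 positive and 11 negative, and in 8 (22.9%, against 15.0% of all genes) every Phf21bΔ4/Δ4 mouse was above every Phf21b+/+ mouse. *Cd34*, a sialomucin of endothelial and progenitor cells, was at 42.9, 43.2, and 57.3 CPM in the Phf21bΔ4/Δ4 mice and at 34.6, 28.3, and 28.5 CPM in the Phf21b+/+ mice (log2 fold change 0.64, SE 0.14, adjusted p = 0.132). *Robo4*, which encodes an endothelial Roundabout receptor, was at 3.37, 3.48, and 3.13 CPM in the Phf21bΔ4/Δ4 mice and at 2.33, 2.15, and 1.84 CPM in the Phf21b+/+ mice (log2 fold change 0.66, SE 0.19, adjusted p = 0.147). At the other end were *Ocln*, which encodes the tight junction protein occludin, and *Slc2a1*, which encodes the glucose transporter GLUT1, both picked out after their values were seen as the 2 genes of the list lower at an unadjusted p under 0.05. *Ocln* was at 18.9, 9.91, and 22.9 CPM in Phf21bΔ4/Δ4 replicates 2, 3, and 6 and at 22.7, 51.8, and 29.3 CPM in Phf21b+/+ replicates 5, 7, and 8 (log2 fold change -1.0, SE 0.40, adjusted p = 0.198). *Slc2a1* was at 50.0, 43.4, and 47.1 CPM in the Phf21bΔ4/Δ4 mice and at 49.0, 70.2, and 59.6 CPM in the Phf21b+/+ mice (log2 fold change -0.33, SE 0.14, adjusted p = 0.209). Of the 35 genes, 6 had their highest level in Phf21b+/+ replicate 7, namely these 2 with *Emcn*, *Slc22a8*, *Slc38a5*, and *Bsg*. The part of choroid plexus genes in these values was not tested.

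Of 15 other pericyte genes 12 were measured, with a median log2 fold change of 0.60, 11 positive and 1 negative, and 5 higher (41.7%, against 11.6% of all genes) and 1 lower at an unadjusted p under 0.05. The 12 genes summed to 85.2 ± 8.30 CPM in the Phf21bΔ4/Δ4 mice and to 204 ± 31.5 CPM in the Phf21b+/+ mice (SD over 3 mice), most of it *Zic1* in the Phf21b+/+ mice. The 1 gene called was *Zic1*, a transcription factor gene that is also expressed by neurons of other brain regions. *Zic1* was lower in the Phf21bΔ4/Δ4 hippocampus, with 4.68, 2.95, and 24.9 CPM in replicates 2, 3, and 6 against 127, 200.1, and 154 CPM in Phf21b+/+ replicates 5, 7, and 8 (log2 fold change -4.49, SE 0.74, adjusted p = 0.0787). With *Zic1* set aside after its value was seen, the other 11 genes, by this choice all with a positive fold change, summed to 86.6, 85.6, and 50.9 CPM in Phf21bΔ4/Δ4 replicates 2, 3, and 6 and to 52.9, 39.6, and 38.4 CPM in Phf21b+/+ replicates 5, 7, and 8. The order of mice was that of the pericyte markers, with Phf21bΔ4/Δ4 replicate 6 below the highest Phf21b+/+ mouse in 6 of the 11 genes. Chosen after their values were seen, *Cspg4*, which encodes the NG2 proteoglycan of pericytes and oligodendrocyte progenitors, and *Notch3*, which encodes the Notch receptor of mural cells, are among these 6. They did not have the full order of mice, since in both Phf21bΔ4/Δ4 replicate 3 was above replicate 2. *Cspg4* was at 35.8, 38.6, and 18.8 CPM in the Phf21bΔ4/Δ4 mice and at 19.2, 16.0, and 16.6 CPM in the Phf21b+/+ mice. *Notch3* was at 9.62, 10.9, and 5.0 CPM in the Phf21bΔ4/Δ4 mice and at 6.31, 4.73, and 4.27 CPM in the Phf21b+/+ mice.

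**Figure D3:**
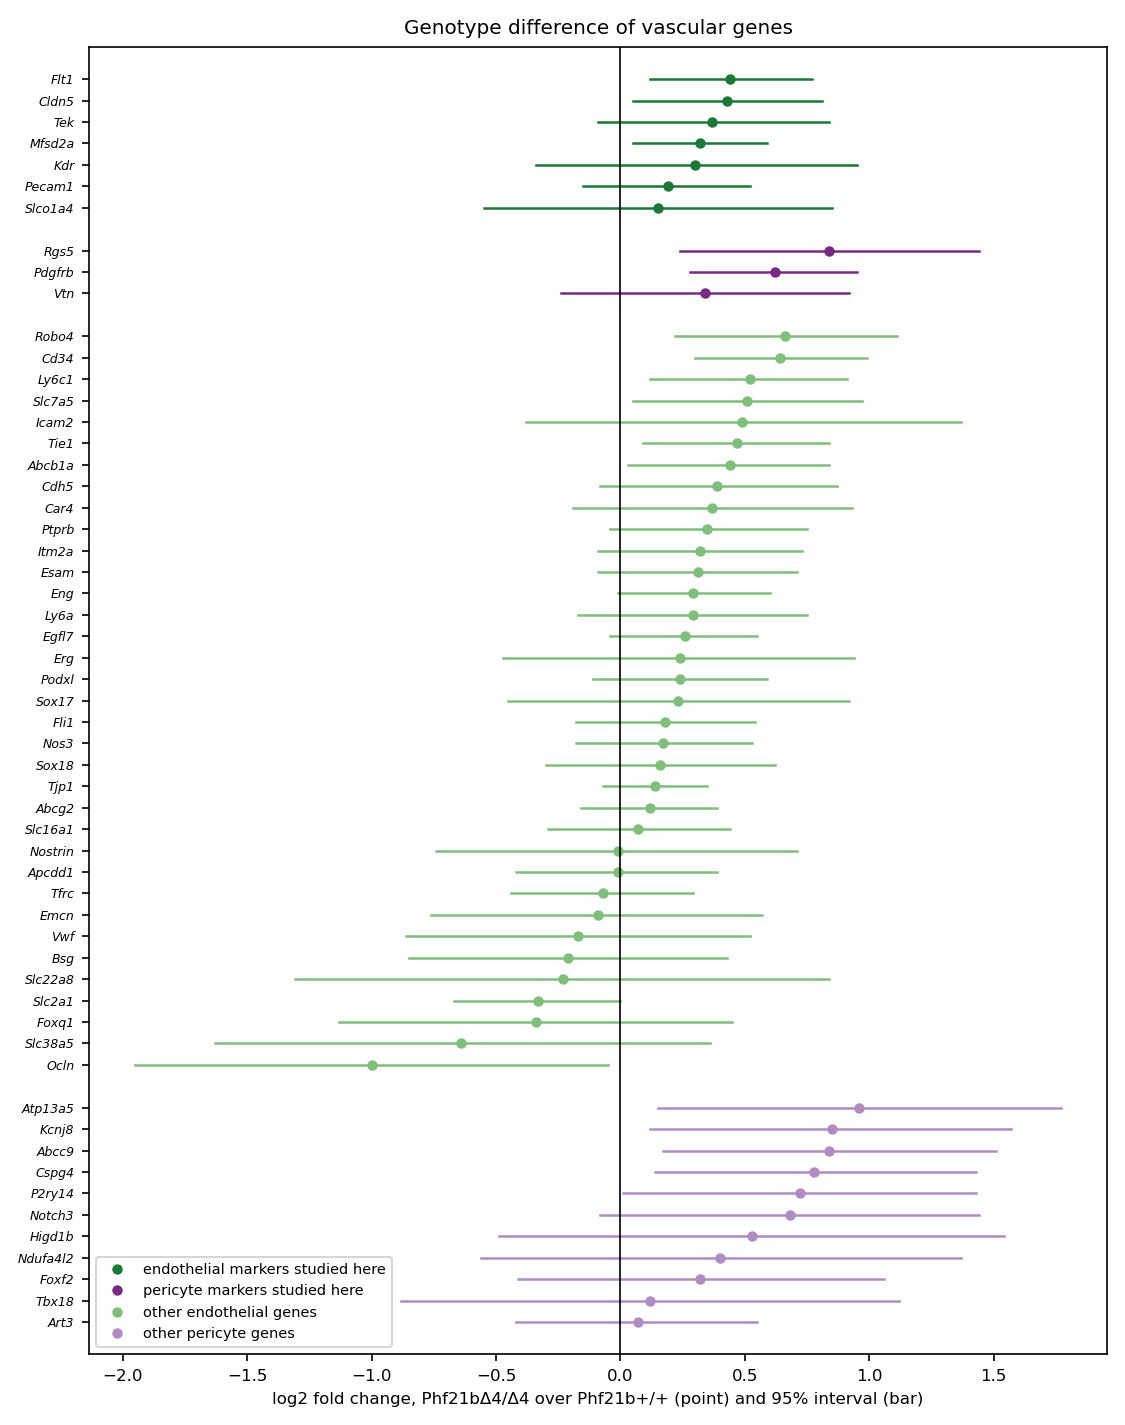
Log2 fold change (Phf21bΔ4/Δ4 over Phf21b+/+) with its 95% interval in limma for the 10 markers, 35 other endothelial genes, and 11 other pericyte genes (*Zic1*, at -4.49, is left out for scale). All 10 markers lie right of 0, and the other endothelial genes lie on both sides, from *Ocln* at -1.0 to *Robo4* at 0.66.

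The ligands and partner receptors of these markers showed no shared direction. Of 12 genes for VEGF, angiopoietin, and PDGF ligands 11 were measured, 0 were called by limma or by voom, 2 were lower at an unadjusted p under 0.05, and the median log2 fold change was -0.07, with 4 positive and 7 negative. The lowest p-values were those of *Pdgfd*, which encodes a ligand of PDGFRβ, at 6.03, 4.57, and 6.74 CPM in the Phf21bΔ4/Δ4 mice against 10.9, 24.8, and 11.4 CPM in the Phf21b+/+ mice (log2 fold change -1.35, SE 0.34, adjusted p = 0.135), and of *Angpt2*, the antagonist angiopoietin (log2 fold change -1.48, SE 0.61, adjusted p = 0.206). *Pdgfb*, the endothelial ligand of PDGFRβ, is added after its values were seen and was at 23.3, 20.5, and 20.1 CPM in the Phf21bΔ4/Δ4 mice and at 15.8, 20.6, and 15.4 CPM in the Phf21b+/+ mice (log2 fold change 0.31, SE 0.14, adjusted p = 0.225). Of 5 other receptors 0 were called by limma or by voom, and 2 were higher and 1 lower at an unadjusted p under 0.05, with a median log2 fold change of 0.32. *Pdgfra*, the PDGF receptor of fibroblasts and oligodendrocyte progenitors, had a log2 fold change of 0.39 (SE 0.13, adjusted p = 0.164), and *Tie1*, the partner of TIE2, one of 0.47 (SE 0.16, adjusted p = 0.168).

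Wnt signaling sets up and maintains the barrier in brain endothelium. Of 22 genes of this pathway 21 were measured, 2 were called lower, 0 were called higher, and the median log2 fold change was -0.12. *Tcf7l2*, a Wnt transcription factor gene that is strongly expressed in thalamic and habenular neurons and was also on the thalamic list, was at 2.99, 3.0, and 1.74 CPM in the Phf21bΔ4/Δ4 mice and at 29.6, 21.4, and 16.2 CPM in the Phf21b+/+ mice (log2 fold change -3.12, SE 0.30, adjusted p = 0.0239). *Axin2*, a Wnt target and inhibitor of the pathway in many cell types, was at 20.8, 23.1, and 20.8 CPM in the Phf21bΔ4/Δ4 mice and at 31.8, 32.8, and 33.5 CPM in the Phf21b+/+ mice (log2 fold change -0.60, SE 0.08, adjusted p = 0.0618). Both were lower in the same genotype as the 12 medial habenula genes, all 12 of which were called lower (median -5.29). Among Phf21b+/+ replicates 5, 7, and 8 *Tcf7l2* fell, while the habenula sum rose (242.5, 248.1, and 347.4 CPM) and the thalamic sum fell (582.8, 452.4, and 369.9 CPM). The thalamic sum includes *Tcf7l2* itself and *Prox1*, which is also on the dentate granule cell list. The part of habenular or thalamic tissue in the 2 genes was not tested.

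Smooth muscle, blood, and fenestrated endothelial genes were not called in limma or voom, and none of them had an unadjusted p under 0.05. Of 10 vascular smooth muscle genes 6 were measured and 0 were called, with a median log2 fold change of 0.11, and the lowest p-values were those of *Myh11* (log2 fold change 0.83, adjusted p = 0.287) and *Mylk* (0.25, adjusted p = 0.290). Smooth muscle genes summed to 54.6, 36.2, and 42.5 CPM in the Phf21bΔ4/Δ4 mice and to 42.5, 37.2, and 35.1 CPM in the Phf21b+/+ mice, so that Phf21bΔ4/Δ4 replicate 2 was again the highest. Of 14 fibroblast and meningeal genes 13 were measured and 1 was called, *Fmod*, a small proteoglycan gene that was lower in the Phf21bΔ4/Δ4 mice (log2 fold change -1.43, SE 0.26, adjusted p = 0.0962), and the median of the list was -0.75. Voom called 0 of these 13 genes. At an unadjusted p under 0.05 in limma, 6 of the 13 were lower and 0 higher (46.2% either way, against 23.6% of all genes). Blood cell genes, of which 5 of 7 were measured and 0 called (median 0.04), summed to 71.4, 41.9, and 39.2 CPM in the Phf21bΔ4/Δ4 mice and to 33.0, 37.2, and 110.3 CPM in the Phf21b+/+ mice. The mouse with the lowest vascular markers, Phf21b+/+ replicate 8, thus had the highest sum of blood cell genes. Their lowest p-values were those of *Alas2* (log2 fold change 0.43, adjusted p = 0.611) and *Hbb-bt* (0.27, adjusted p = 0.776). Of 4 genes listed for fenestrated endothelium, which lines the choroid plexus vessels, 3 were measured and 0 were called (median 0.23, the value of *Plpp3*). *Plpp3* had a log2 fold change of 0.23 (adjusted p = 0.284) and *Nrp1*, also on the list of other receptors, one of 0.32 (adjusted p = 0.306). *Plvap*, the remaining gene, is added after its values were seen and went the other way (log2 fold change -0.33, SE 0.28, adjusted p = 0.468). Its level was 2.07 to 4.52 CPM over the mice, against 224 to 326 CPM for *Plpp3* and 105 to 188 CPM for *Nrp1*. Which cells these reads came from was not measured, so the median does not describe fenestrated endothelium.

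Among other cells, the 8 microglia genes (median -0.09, lowest p for *Csf1r* at a log2 fold change of 0.19, adjusted p = 0.167) and the 8 oligodendrocyte genes (median -0.20) held 0 called genes by limma or voom, with 1 microglia gene and 0 oligodendrocyte genes at an unadjusted p under 0.05. Of 10 astrocyte genes (median -0.13) 1 was called, *Aqp4*, which encodes the water channel of the astrocyte endfeet around the vessels and was lower in the Phf21bΔ4/Δ4 mice (log2 fold change -0.68, adjusted p = 0.0669). Of 15 choroid plexus genes 1 was called lower, *Otx2* (log2 fold change -5.30, adjusted p = 0.0890), which voom did not call, and the median was -4.11. Of 7 measured thalamic genes *Tcf7l2* alone was called (median -1.08, the value of *Prox1*, which is also on the dentate granule cell list). Of 7 CA1 pyramidal cell genes *Gpr161*, *Fibcd1*, and *Mpped1* were called higher (median 1.28), and all 6 dentate granule cell genes were lower at an unadjusted p under 0.05 (median -1.46) with 0 called by limma or voom. The part of these subfields and regions in the vascular values was not tested.

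**Figure D4:**
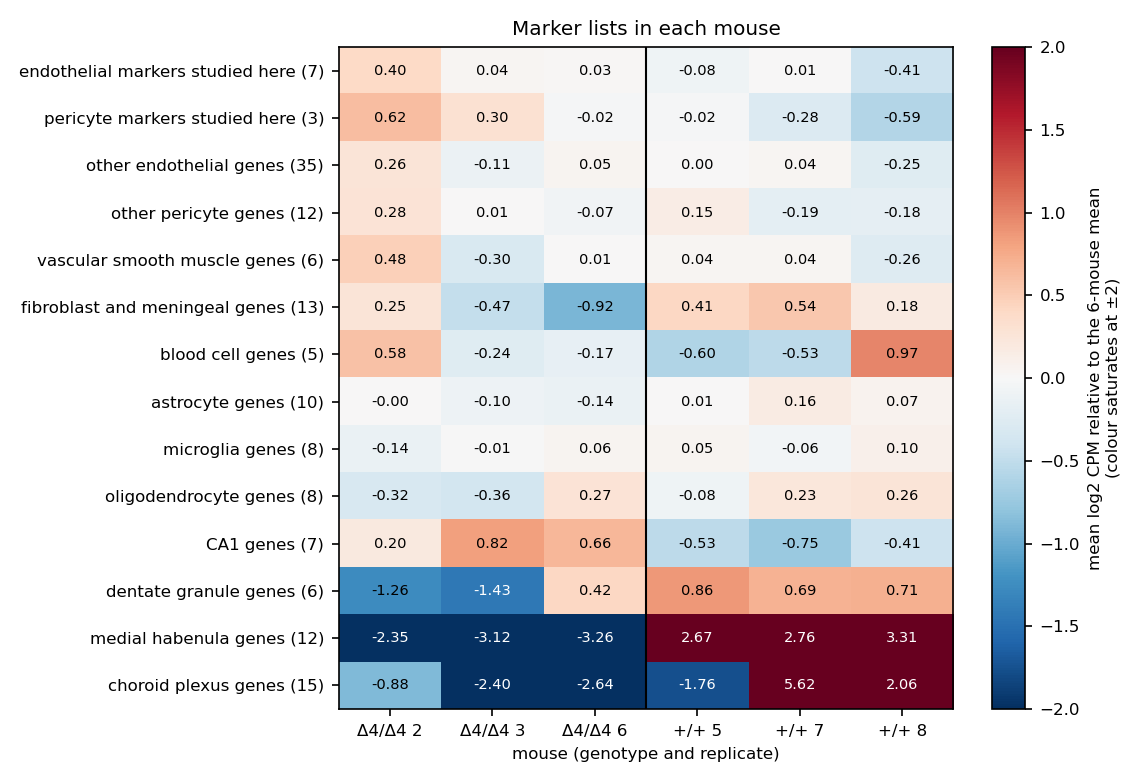
Mean log2 CPM of each list in each mouse relative to its mean over the 6 mice, for the 7 endothelial and 3 pericyte markers and for genes of other cells, with the number of genes in parentheses. Colors saturate at ±2. The endothelial markers range from -0.41 in Phf21b+/+ replicate 8 to 0.40 in Phf21bΔ4/Δ4 replicate 2 and the pericyte markers from -0.59 to 0.62 in the same mice, while the medial habenula and choroid plexus genes saturate the scale in most mice.

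The genes whose profiles over the 6 mice were nearest to the mean profile of the 7 endothelial markers were *Itm2a*, *Cd248*, *Pde5a*, *Acot4*, and *Mvd*, at root mean square distances of 0.045, 0.048, 0.054, 0.057, and 0.068 on the log2 scale. The median distance was 0.31 over the 14470 other genes. *Itm2a*, which encodes an integral membrane protein and was on the endothelial list, was at 41.2, 32.6, and 31.5 CPM in the Phf21bΔ4/Δ4 mice and at 29.1, 33.2, and 22.4 CPM in the Phf21b+/+ mice.

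The calls depended on single libraries. Without Phf21bΔ4/Δ4 replicate 6, 4 of the 10 markers were called (*Flt1*, *Mfsd2a*, *Pdgfrb*, and *Rgs5*), while 19.6% of all genes were called then. Without Phf21b+/+ replicate 7 the log2 fold change of *Slco1a4* was 0.48 (adjusted p = 0.377), and without Phf21b+/+ replicate 8 it was -0.11. Without Phf21bΔ4/Δ4 replicates 2 and 3, the 2 libraries with the lowest dentate granule cell genes, the median log2 fold change of the pericyte markers was 0.31 and that of *Kdr* was -0.18. The dentate difference stays in this comparison, since replicate 6 was also below every Phf21b+/+ mouse in that sum. Without Phf21b+/+ replicates 7 and 8, the 2 libraries with high choroid plexus genes, that of *Vtn* was -0.02, and 0 of the 10 markers were called in either case. The lone mouse left in 1 genotype was then assumed to vary like the 3 mice of the other.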

How the data were processed

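Hippocampal RNA-Seq of 3 Phf21bΔ4/Δ4 and 3 Phf21b+/+ mice was analysed. The authors trimmed reads (Trimmomatic 0.39), mapped them to GRCm38 (STAR 2.7.3a), summarized them over GENCODE genes (featureCounts of Subread 1.6.4), kept genes above a low level, and normalized with edgeR. The deposited values were log2 CPM of 14477 genes. Their prior count and the strandedness of counting are not given in the sources used here. CPM and reads were worked out from the lowest value and the steps of 1 read, and all reads came out whole within 0.1. Replicates of a genotype differed beyond counting noise.

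Genotypes were tested in limma 3.58.1 (R 4.3.3) on the log2 values as deposited, by lmFit and eBayes with a mean-variance trend (2-sided), and p-values were adjusted by Benjamini and Hochberg's procedure across the 14477 genes. The FDR of 0.1 and fold of 1.3 were those of the authors, whose own test was edgeR's on counts. On simulated data with independent noise the test was checked for recovery of known changes, all larger than those of the markers. It could not show whether changes of the markers' size are recovered. The limma p-values measure the spread between single mice. Exon lengths and positions came from GENCODE M21 (98.8% of symbols found), and promoter windows from RefSeq, GRCm38.p6. No marker overlapped another annotated gene.

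The markers, gene lists, and tests were chosen with earlier results of these data known. Named are the 10 markers, *Phf21b*, called genes of each list (at most 4) or else the 2 with the lowest p, and the 5 genes nearest to the endothelial profile. Some genes stand on 2 lists. Alternatives covered the variance prior, mouse weights, a filter on low values, pseudocounts, normalization, voom, thresholds, and left-out mice.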

Additional observations from a re-analysis of the deposited data

How the results depend on the processing

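The fold changes of the 10 markers, their counts of calls and medians, and the count of calls among the other endothelial genes were recomputed under the alternatives. The other lists were not, apart from voom. Of 72 recomputed counts and medians 66 stayed within 1.5 times their value or the spread between mice, and 6 moved. Of the recomputed single markers 154 kept direction and call, 13 passed the threshold, and 3 turned direction. Some of these values could not move. Another variance prior or the filter on low values leaves the fold changes and medians as they are. With a lowest adjusted p of 0.132 among the markers, a stricter FDR or no fold threshold could not add a call.

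With the mice weighted by arrayWeights, 9 of the 10 markers and 16 of the 35 other endothelial genes were called, the endothelial median was 0.66, and 3549 genes (24.5%) were called in all, against 176 without weights. The weights were 4.63 for Phf21b+/+ replicate 8 and 2.04 for Phf21bΔ4/Δ4 replicate 2, and between 0.343 and 1.01 for the other 4 mice. Leaving out each mouse in turn, 0 to 4 markers, 0 to 4 other endothelial genes, and 9 to 2830 genes in all were called, and *Slco1a4* ranged from -0.11 to 0.48. A variance prior equal for all genes called 75 genes and a filter on low values 101, with 0 markers called.

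A pair of settings were added after seeing the data. Without Phf21bΔ4/Δ4 replicates 2 and 3 the pericyte median was 0.31 and *Kdr* was at -0.18, and 49 genes were called in all. Without Phf21b+/+ replicates 7 and 8 *Vtn* was at -0.02 and 0 genes were called in all. The cause of these differences was not tested. Limits are 3 mice per genotype, 206 reads for the lowest marker, and libraries that differ in genes of neighboring regions. No paired analysis was possible because the labels give neither the litter of a mouse nor a pairing of the mice.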
